A study of Mus musculus with 8 samples.

Results

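The mRNAs of the nuclear-encoded subunits of the respiratory chain and of ATP synthase were examined in livers of mice that carried a human tumour. Members were chosen by their symbol and by their summed counts. A member was a protein-coding mouse gene spelled Nduf followed by a, b, c, s or v and a digit, Sdha to Sdhd, or beginning with Uqcr, Cox4 to Cox8 or Atp5, with at least 40 counts over the 8 libraries. Of 85 genes with such a symbol, 80 met the limit, out of 55401 genes in the table and 14168 protein-coding genes at or above the same limit. By spelling, 37 belonged to complex I, 4 to complex II, 8 to complex III, 14 to complex IV and 17 to complex V. The summed count is therefore no result for these genes. Just inside the limit were Cox4i2 with 104 counts, Cox6b2 with 328 and Cox7a1 with 357. Just outside it were Cox6a2 and Cox8b with 4 counts each, and Cox7b2, Cox8c and a second identifier named Atp5o with 0.

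The hosts were NOD scid gamma mice, an immunodeficient strain. They bore subcutaneous xenografts of Colo201, which the labels give as FGF19-Hi, or of HCT116, given as FGF19-Lo; both are established human colorectal cancer lines. FGF19 is an intestinal hormone that acts on hepatocytes, and the series asks how a tumour that makes it changes the host liver. Each line had 4 liver libraries, 2 labelled male and 2 labelled female, which are named here by line and title (2L, 2R, 4L and 4R for Colo201; 1L, 1R, 3L and 3R for HCT116). The labels used give no age. There was no tumour-free host, and neither line was tested at more than its own level of FGF19. Whether L and R are different animals is not stated either, so p-values cover only the spread between these libraries, part of which may be technical.

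The libraries held 61347603 to 65457482 estimated counts, and the 80 members together took 1.03 to 1.15% of them. All 10 hepatocyte markers had counts and summed to 156141 to 200042 CPM (counts scaled to a common library size, with TMM factors here and throughout) in Colo201 hosts and to 128449 to 168682 in HCT116 hosts. The difference, Colo201 minus HCT116 hosts, was positive for 6 of them and negative for 4. By the test described below, 3 passed as higher in Colo201 hosts, against 2.48% of all genes, and none as lower. Of 8 stellate and matrix markers 6 were positive and 2 negative, 1 passed as higher and none as lower. No tested Kupffer cell, endothelial, cholangiocyte or neutrophil marker passed between lines. Myh1, Myh4 and Tnnt3 of skeletal muscle and Lep, Ucp1 and Cidea of fat were at 0. In all 8 libraries Xist and the Y-linked genes went against the sex label: Xist reached 239 to 374 CPM of library totals under the label male and 0.275 to 0.833 under the label female. The labels are therefore used below only as labels.

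Oxidative phosphorylation passes electrons from NADH through complex I, or from succinate through complex II, to complex III and on to oxygen at complex IV. The protons pumped on the way drive ATP synthase, complex V. Apart from complex II, each complex joins subunits made from mitochondrial DNA to many more made from nuclear genes, and hepatocytes are rich in mitochondria. Symbol and complex do not match everywhere. Ndufa4 and Ndufa4l2 are spelled as complex I genes but their proteins are assigned to complex IV, Cox7a2l takes part in supercomplexes, and Atp5s is not a structural subunit.

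Near-identical gene copies bore on how these genes were counted, so 3 pairs are shown first. Transcripts of 20 of the 80 members matched another annotated gene at 95% identity or more over at least 200 bases, and most of these other genes were pseudogenes. In 15 of the 20 the copies held over 1% of the member's own counts. For Ndufs5, an accessory subunit of complex I, the pseudogene BC002163 held 20674 counts and Ndufs5 itself 3601. For Ndufa12, also an accessory subunit, Gm15920 held 22536 counts against 13355. For Atp5g1, a gene of the membrane ring of ATP synthase, Gm10039 held 36581 against 53665. Each pair below is a coding stretch of 120 bases from GENCODE vM21 (GRCm38), with capitals where the pair differs. The whole coding sequence of Ndufs5 (chr4:123712710-123718202, minus strand) differs from BC002163 (chr16:42955631-42955949, plus strand) at 2 of 318 bases. That of Atp5g1 (chr11:96068852-96075670, minus strand) differs from Gm10039 (chr11:100361716-100362126, minus strand) at 1 of 408. Over 399 aligned bases Ndufa12 (chr10:94198720-94221443, plus strand) differs from Gm15920 (chr5:130188395-130188796, plus strand) at 2, 1 of them in the stretch shown.
Ndufs5: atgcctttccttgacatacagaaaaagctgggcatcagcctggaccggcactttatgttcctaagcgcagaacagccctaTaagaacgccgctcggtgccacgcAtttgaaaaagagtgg
BC002163: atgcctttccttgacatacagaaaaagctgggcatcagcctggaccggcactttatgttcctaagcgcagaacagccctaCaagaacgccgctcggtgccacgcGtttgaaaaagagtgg
Ndufa12: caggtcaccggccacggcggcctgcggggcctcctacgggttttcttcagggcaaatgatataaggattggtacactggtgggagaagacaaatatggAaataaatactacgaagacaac
Gm15920: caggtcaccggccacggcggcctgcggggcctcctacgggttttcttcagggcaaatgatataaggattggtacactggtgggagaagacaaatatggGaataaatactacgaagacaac
Atp5g1: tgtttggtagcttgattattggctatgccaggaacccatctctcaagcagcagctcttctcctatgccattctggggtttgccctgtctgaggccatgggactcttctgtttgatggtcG
Gm10039: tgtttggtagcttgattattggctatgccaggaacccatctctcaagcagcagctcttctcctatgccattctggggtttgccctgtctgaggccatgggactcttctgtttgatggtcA
Reads from the matched stretch that miss the differing bases match both genes of a pair. The levels of Ndufs5, Ndufa12 and Atp5g1 are uncertain for that reason. Ndufs5 alone ran from 4.62 to 9.03 CPM over the 8 libraries and from 43.2 to 56.7 CPM when its copy was joined to it. The difference between lines of Ndufs5 was 0.24 on the log2 scale alone and 0.06 joined, and its edgeR adjusted p was 0.544 and 0.798.

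Promoter windows from RefSeq (GRCm38.p6, 250 bases before to 50 after the start) were matched for 64 of the 80 members. Runs of letters known from factors of respiratory genes were searched on both strands. GCGCANGCG, the core of NRF1 sites, stood in 20 of the 64 windows (31.25%), against 10.03% of 16513 protein-coding genes and 16.95% of the 4213 of these at 20 CPM or more. AAGATGGC, part of YY1 sites, stood in 9 (14.1%), against 3.64% and 6.03%. CCGGAAG of ETS factors, among them Gabpa, stood in 16 (25%), against 13.35% and 21.27%. TGACGTCA, the cyclic AMP response element, stood in 4 (6.25%), against 2.63% and 3.25%. TCAAGGTCA of the oestrogen-related receptors stood in 2 (3.12%), Sdhd and Atp5g3, against 0.39% and 0.21%. TATAAA stood in 5 (7.81%), against 14.3% and 9.54%, and CCAAT in 28 (43.8%), against 42.1% and 42.9%. A match is a description of letters and not a site. The median difference between lines was 0.07 on the log2 scale in the 20 members with the NRF1 letters and 0.10 in the 44 without them. Windows are printed for Ndufb7 and Ndufa4, which passed a test below, and for Sdhd, which holds the NRF1, ETS and ERR letters together; capitals mark every matched run. The Ndufb7 window, at chr8:83566508-83566807 on the plus strand, holds TATAAA on the minus strand far upstream and the ETS letters near the start. The Ndufa4 window, at chr6:11907401-11907700 on the minus strand, holds none of the runs. The Sdhd window is chr9:50603800-50604099 on the minus strand.
Ndufb7: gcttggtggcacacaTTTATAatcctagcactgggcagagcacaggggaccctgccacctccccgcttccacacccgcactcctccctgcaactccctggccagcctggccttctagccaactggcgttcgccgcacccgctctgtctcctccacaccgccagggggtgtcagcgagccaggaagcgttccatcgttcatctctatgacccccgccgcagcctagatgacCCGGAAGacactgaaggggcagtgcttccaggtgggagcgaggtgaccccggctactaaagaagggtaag
Ndufa4: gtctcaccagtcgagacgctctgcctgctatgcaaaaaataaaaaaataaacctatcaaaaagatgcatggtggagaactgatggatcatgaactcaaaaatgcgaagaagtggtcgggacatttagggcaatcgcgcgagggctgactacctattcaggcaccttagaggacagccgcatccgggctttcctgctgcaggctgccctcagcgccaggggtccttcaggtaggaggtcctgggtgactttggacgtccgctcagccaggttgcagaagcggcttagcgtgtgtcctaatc
Sdhd: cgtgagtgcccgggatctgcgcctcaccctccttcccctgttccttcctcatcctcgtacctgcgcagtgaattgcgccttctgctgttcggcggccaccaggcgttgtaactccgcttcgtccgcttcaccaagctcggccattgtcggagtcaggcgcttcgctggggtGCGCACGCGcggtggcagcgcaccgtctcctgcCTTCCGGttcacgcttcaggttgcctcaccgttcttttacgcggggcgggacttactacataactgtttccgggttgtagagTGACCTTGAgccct

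Levels between genes were compared in the authors' FPKM, which are fragments scaled for depth and exon length and here equal the counts over the merged exon length. Genes with long merged exons, such as Ndufb2 with 5628 bases, are therefore understated. Cox6a1, a small subunit of complex IV, was highest at 357 ± 25.2 FPKM (SD, n = 8 libraries). Cox8a, another small subunit of complex IV, followed at 273 ± 14.6 FPKM. The catalytic head of ATP synthase came next, with Atp5a1 (alpha) at 250.4 ± 15.7 FPKM and Atp5b (beta) at 217 ± 21.2 FPKM. Cox6a1 and Cox8a lay further apart than their spreads, whereas the neighbours Cox8a and Atp5a1 differed by less than the sum of their spreads.

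The highest members of the other complexes lay lower. Ndufb9 led complex I at 139 ± 12.3 FPKM and Sdhd led complex II at 146 ± 5.83 FPKM. In complex III, Uqcr10 stood at 147 ± 18.1 FPKM and the Rieske protein gene Uqcrfs1 at 136 ± 10.4 FPKM. The median member had 57.7 FPKM.

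Isoform families were led by the form known from liver. Cox4i1, the ubiquitous form of the regulatory subunit, was at 173 FPKM and Cox4i2, which is known from lung, at 0.231. Cox6b1 was at 163 FPKM and Cox6b2, known from testis, at 0.504. Cox7a2 was at 91.8 FPKM and Cox7a1, the form of heart and muscle, at 1.195. Cox6a1 had its partner Cox6a2, the muscle form, outside the limit, and Cox8a likewise Cox8b. Cox7b stood at 126 FPKM, and its partner Cox7b2 had no count. Among the 3 genes of the ATP synthase membrane ring, which encode the same mature protein, Atp5g3 was at 141 FPKM, Atp5g2 at 57.6 and Atp5g1 at 19.8. The order of these 3 may shift, since the Atp5g1 model is 4912 bases long and shares reads with its copy. Ndufa4 was at 116 FPKM and Ndufa4l2 at 1.12.

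Between the lines, 2 members passed and both were higher in Colo201 hosts, and no member passed as lower. Of all 17669 genes tested with edgeR's quasi-likelihood test, 2.48% passed as higher in Colo201 hosts and 2.3% as lower, at a Benjamini-Hochberg adjusted p of 0.05. All 80 members entered the test. The share of members that passed, 2 of 80, is near that of all genes. At an unadjusted p of 0.05, 9 members were higher and 4 lower, against 11% and 10.7% of all genes, so the 9 are near the background and the 4 below it. DESeq2 called 3 members as higher and Ndufs1 as lower, against 5.8% and 6.04% of the 15234 genes with an adjusted p there. The sign was positive for 49 members and negative for 31, and the median was 0.07 on the log2 scale, against 0.00 over all genes.

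**Figure D1:**
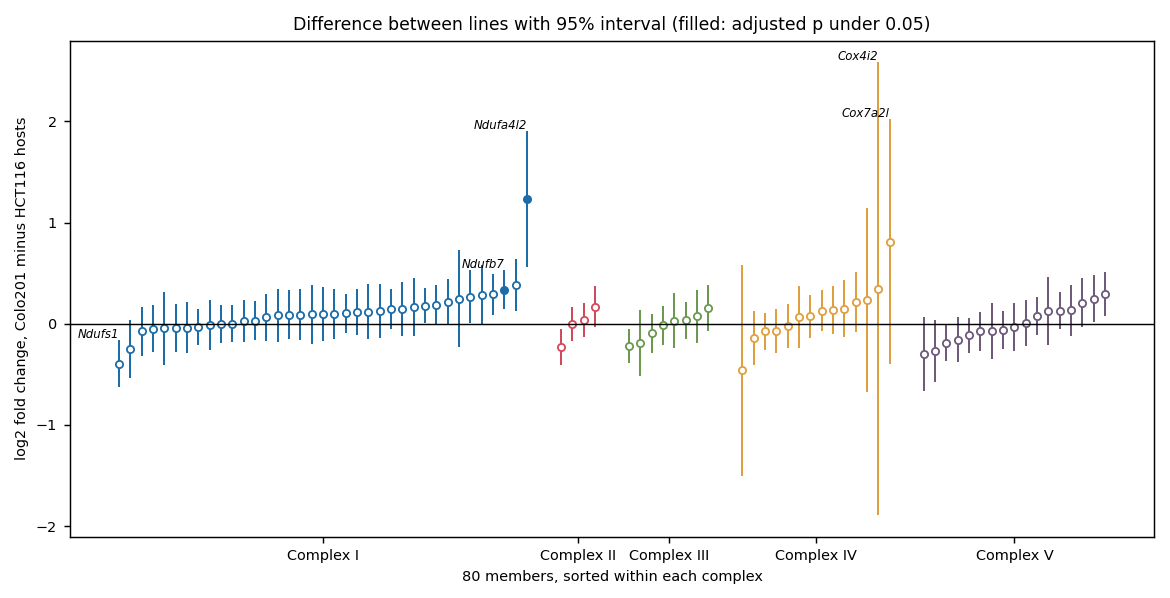
Difference between lines for the 80 members, sorted within each complex. The vertical axis is the log2 fold change, Colo201 minus HCT116 hosts, points are estimates, bars are 95% intervals, and filled points passed. Ndufb7 and Ndufa4l2 are filled, and 64 of the 80 bars lie wholly within 0.5 of zero.

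The intervals bounded most of the differences. For 64 of 80 members the 95% interval of the log2 fold change lay wholly between -0.5 and 0.5, and for 75 it lay between -1 and 1, a 2-fold change either way. Those beyond -1 or 1 were Ndufa4l2, Cox7a2l and the rare forms Cox4i2, Cox6b2 and Cox7a1. Of the 74 members at 20 CPM or more, 9 (12.2%) differed by at least 0.25 on the log2 scale, against 35.0% of 5412 genes at that level. Only Cox7a2l among the 74 differed by at least 0.5 (1.35%), against 10% of those genes.

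Ndufb7 (chr8:83566671-83571626 in GRCm38, plus strand) encodes an accessory subunit of the membrane arm of complex I. Its CPM were 78.5, 76.1, 76.0 and 73.5 in Colo201 2L, 2R, 4L and 4R. The HCT116 libraries, in the order 1L, 1R, 3L, 3R, had 62.3, 62.1, 53.8 and 62.6, and values by library keep these orders below. The lines did not overlap, and HCT116 3L was the lowest library. The log2 fold change was 0.34 (SE 0.0787), with an edgeR adjusted p of 0.0484, and it was higher in 4 of 4 Colo201 libraries.

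Ndufa4l2 (chr10:127514967-127517154, plus strand) is a paralogue of Ndufa4 that is known to be induced by hypoxia. It was scarce, with 2.25, 2.23, 1.92 and 1.102 CPM in Colo201 hosts and 1.0997, 1.16, 0.653 and 0.417 CPM in HCT116 hosts. The lines overlapped, since Colo201 4R lay among the HCT116 libraries labelled male. The log2 fold change was 1.23 (SE 0.289, edgeR adjusted p 0.0493). It shares 32 exon bases on the opposite strand with Shmt2, which held 80138 counts against 685 for Ndufa4l2, and no source used here says whether counting used the strand.

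Both calls lay close to the threshold and were lost when any single library was left out. The adjusted p then ranged from 0.0635 to 0.152 for Ndufb7 and from 0.0569 to 0.128 for Ndufa4l2, while the log2 fold changes kept their sign, at 0.29 to 0.38 and 1.001 to 1.33.

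**Figure D2:**
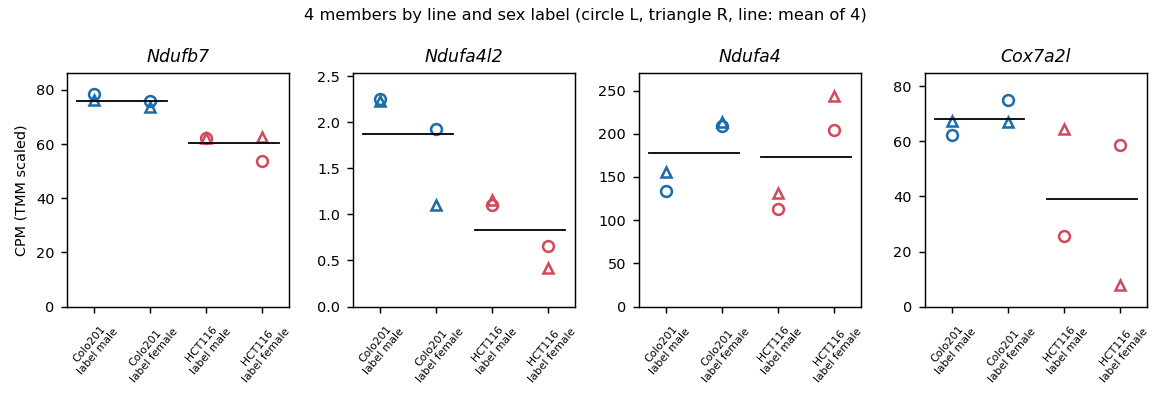
CPM of 4 members by line and sex label, with circles for L, triangles for R and horizontal lines at the mean of the 4 libraries of a line. Ndufb7 separates the lines, Ndufa4 separates the sex labels, and Cox7a2l is low in HCT116 1L and 3R.

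In complex I, 26 of 37 members had positive differences and 11 negative, with a median of 0.09 on the log2 scale. The core subunits carry the flavin and the iron-sulphur clusters, and the accessory subunits surround them. Of 7 core genes 2 were positive and 5 negative, with a median of 0.00, and of 28 accessory genes 22 were positive and 6 negative, with a median of 0.10. The median merged exon length was 2178 bases in the core genes and 1234 in the accessory genes, and neither the contrast between these groups nor the part of length in it was tested.

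Ndufs1, the largest core subunit, had 87.9, 74.7, 75.9 and 94.8 CPM in Colo201 hosts and 103.5, 110.3, 115 and 109 CPM in HCT116 hosts. Every Colo201 library was below every HCT116 library. The log2 fold change was -0.39 (SE 0.0971), and its edgeR adjusted p of 0.0579 missed the threshold.

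Ndufa13, Ndufa3 and Ndufv3, chosen after their values were seen, are accessory subunits of complex I. Ndufa13 had 92.4, 85.0, 105 and 88.2 CPM in Colo201 hosts and 69.4, 62.3, 66.9 and 86.8 in HCT116 hosts, where 3R reached the Colo201 range. Ndufa3 had 32.1 to 37.8 CPM against 27.4 to 33.4, with the same library highest among HCT116 hosts. The adjusted p was 0.0884 for Ndufa13 and 0.0918 for Ndufa3. Ndufv3, of the flavoprotein part, had 79.5 to 86.6 CPM against 70.2 to 75.8, without overlap, and an adjusted p of 0.189.

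The lines did not overlap for 8 members, 4 (5%) in each direction. Over all genes the share was 6.27% higher and 6.04% lower in Colo201 hosts, so the members' share is near the background. The 4 higher were Ndufb7, Ndufv3, Sdhc and Atp5k, and the 4 lower were Ndufs1, Sdha, Uqcrc2 and Atp5b.

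Complex II, which also serves the citric acid cycle, held both directions. Sdha, the flavoprotein that oxidises succinate, had 438, 389, 447 and 416 CPM in Colo201 hosts and 491, 473, 519 and 502 in HCT116 hosts. Sdhc, a membrane anchor, had 158, 154, 151 and 155 CPM against 147, 139.9, 118 and 146. The lines separated for both genes, downward for Sdha (log2 -0.23, SE 0.0726) and upward for Sdhc (log2 0.17, SE 0.0857). The adjusted p was 0.110 for Sdha and 0.3001 for Sdhc. For Sdhb, the iron-sulphur subunit, and Sdhd, the other anchor, the 95% intervals ran from -0.13 to 0.19 and from -0.16 to 0.15 on the log2 scale.

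In complex III, Uqcrc2, a core protein, had 231, 209, 223.5 and 220.4 CPM in Colo201 hosts and 251.3, 250.2, 255 and 272 in HCT116 hosts. The lines did not overlap. The log2 fold change was -0.22 (SE 0.0706), with an adjusted p of 0.118. Of the 8 members 4 were positive and 4 negative, and the interval of Uqcrfs1 ran from -0.28 to 0.09. Uqcrq, the ubiquinone-binding small subunit, had 211 to 282 CPM against 228 to 321, highest in Colo201 2R and HCT116 3R.

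In complex IV, no member passed, and 9 of 14 were positive. Cox5b, a matrix-facing subunit, had 88.1 to 129 CPM in Colo201 hosts and 84.6 to 96.9 in HCT116 hosts (adjusted p 0.356). Cox6b1, on the side that binds cytochrome c, had an interval from -0.06 to 0.32 on the log2 scale, and Cox6a1 one from -0.09 to 0.36. Cox4i2 was at 0 in HCT116 3R and at 0.136 to 0.308 CPM in the other libraries, and its interval, -1.88 to 2.57, left its difference undetermined at this depth.

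Cox7a2l (chr17:83501918-83517330, minus strand), which takes part in joining complex III and complex IV, had the widest spread among HCT116 libraries of the 75 members at 5 CPM or more. Its CPM were 62.5, 67.5, 75.2 and 67.0 in Colo201 hosts and 25.5, 64.6, 58.6 and 7.91 in HCT116 hosts. The ratio of highest to lowest was 8.17 among HCT116 libraries, where the median of these members was 1.24. Of 3155 genes within 2-fold of its level, 34 (1.078%) had a larger ratio there. The log2 fold change was 0.81 (SE 0.529, adjusted p 0.417). It was 0.43 without HCT116 3R and 1.42 without HCT116 3L, the ends of its range with each library left out, and did not pass in any of these fits.

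The pseudogene Gm6969 matches 201 coding bases of Cox7a2l without a difference. Its CPM were 28.1 to 33.7 in Colo201 hosts and 24.5, 24.4, 32.3 and 31.0 in HCT116 hosts. Joined, gene and copy had 49.97 CPM in HCT116 1L and 38.9 in 3R, against 89.0 to 109 in the other 6 libraries, so the same 2 libraries stayed lowest. The joined log2 fold change was 0.55 (adjusted p 0.266). These 2 libraries differ in title number and sex label.

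In complex V, 8 of 17 members were positive and 9 negative. Atp5b, the catalytic beta subunit, had 1048, 938, 934 and 847 CPM in Colo201 hosts and 1096, 1055, 1077 and 1054 in HCT116 hosts. The lines were apart by the small gap between 1048 and 1054 CPM, and the log2 fold change was -0.19 (SE 0.0756, adjusted p 0.196). Atp5k, subunit e in the membrane part, had 39.7, 40.4, 43.8 and 38.5 CPM against 30.8, 32.3, 31.9 and 37.9. Its log2 fold change was 0.29 (SE 0.0911, adjusted p 0.109). Atp5e, the epsilon subunit of the central stalk, had 78.2 to 96.5 CPM against 68.1 to 85.3, with an adjusted p of 0.187. Atp5a1 had an interval from -0.28 to 0.05 on the log2 scale.

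**Figure D3:**
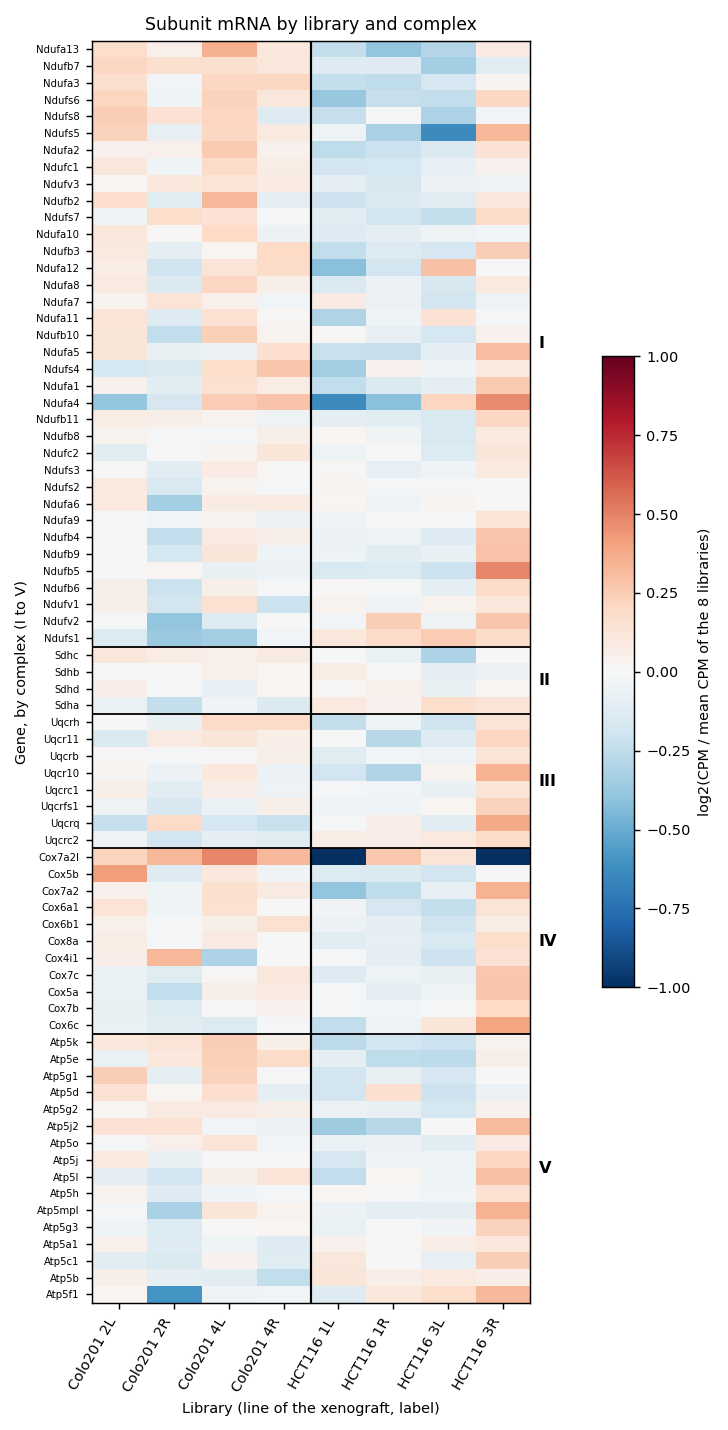
Each of the 75 members at 5 CPM or more (rows, by complex) in each library (columns), as log2 of CPM over the mean CPM of the 8 libraries. HCT116 3R is mostly above the mean, and Cox7a2l is off the scale in HCT116 1L and 3R.

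Summed per complex, differences were small beside 1 library, HCT116 3R, for complexes I, III, IV and V. Complex II had 1003, 940.5, 993 and 976 summed CPM in Colo201 hosts and 1049, 1021, 1013 and 1042 in HCT116 hosts. The lines did not overlap, and the ratio of means was 0.949, and 0.952 without 3R. Sdha was the most abundant of the 4 genes, at a mean of 459 CPM, and the only 1 whose lines separated downward. Sdhc separated upward, and the sum was not taken without Sdha. Complex IV had 1707 to 1771 against 1568 to 1595 in 3 HCT116 libraries and 1889 in 3R. Its ratio of means was 1.0498, and 1.1009 without 3R. Complex I had 2581 to 2954 against 2531 to 3028, with a ratio of 1.04, and 1.083 without 3R. Complex III had 1313 to 1349 against 1321 to 1585, and complex V 3584 to 3979 against 3861 to 4259. No p is given for sums over members chosen with results known, and in whole tissue fewer cells of a type and less RNA per cell cannot be told apart.

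**Figure D4:**
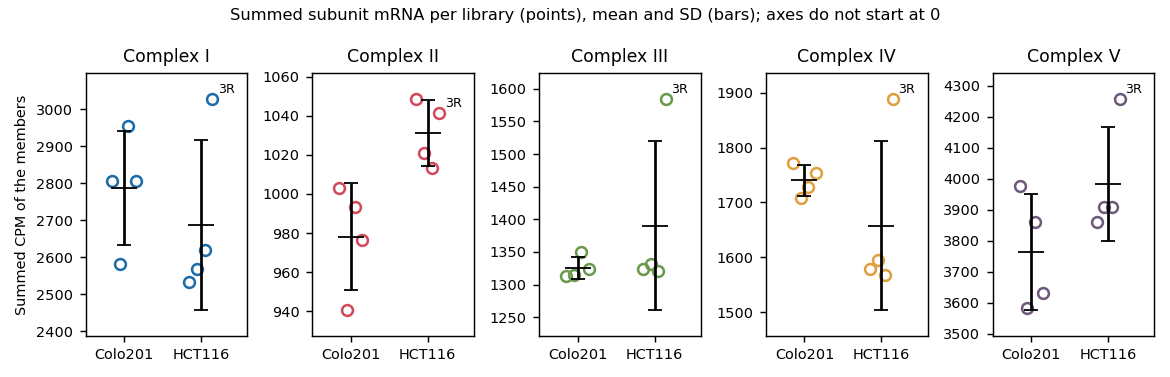
Summed CPM of the members of each complex, with points for libraries and bars for mean and SD of 4 libraries; vertical axes do not start at 0. The lines are apart for complex II, where Sdha is the most abundant gene and the only 1 that separates downward by itself. HCT116 3R, marked, is the highest library for complexes I, III, IV and V.

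HCT116 3R was the highest of the 8 libraries for 38 of the 75 members at 5 CPM or more (50.7%), against 15.6% of 9568 genes at that level. Its sums were also the highest for 81 tested cytosolic ribosomal protein genes, at 13955 CPM against 11524 to 13814, and its mitochondrial-DNA mRNAs, at 65219 CPM against 49956 to 62246. HCT116 3R had the lowest share of counts on Alb, 7.51% against 8.01 to 12.02%. The part of this library in the differences was not tested beyond leaving it out, which raised the members' median from 0.07 to 0.12 on the log2 scale.

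Differences between lines also ran with exon length. Over the 74 members at 20 CPM or more, Spearman's rho between merged exon length and log2 fold change was -0.288, and over 5336 other genes at that level it was -0.293; genes share libraries, so neither has a p. Of 16 members up to 1000 bases 15 were positive, with a median of 0.10, against a median of 0.12 in 190 other genes of that length. Between 1000 and 2000 bases the medians were 0.09 for 30 members and 0.13 for 585 other genes. From 2000 to 3000 bases 2 of 10 members were positive, with a median of -0.05 against 0.08 in other genes. Above 3000 bases the median was 0.00 for 18 members and -0.04 for 3733 other genes. Merged exon length joins all annotated exons of a gene and is not the length of 1 mRNA, so Ndufb7 counts here as 4522 bases. With an offset for this length, chosen after seeing the data, Ndufb7 had an adjusted p of 0.0567 and Ndufa4l2 of 0.0830. The members' median then was -0.05, and Uqcrc2 passed as lower (log2 -0.31, adjusted p 0.0333).

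**Figure D5:**
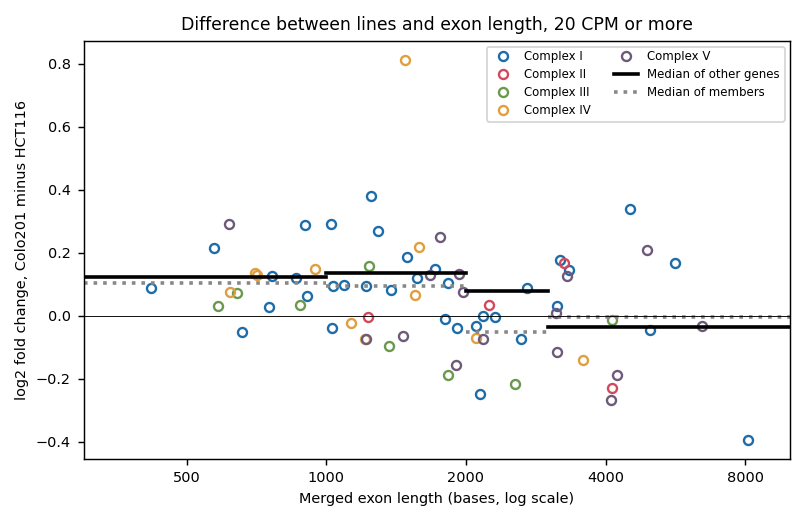
Log2 fold change between lines against merged exon length (log scale) for the 74 members at 20 CPM or more, with the medians of members (dotted) and of other genes (solid) in 4 ranges of length. Both medians are positive up to 2000 bases, and above 3000 bases both lie just below zero.

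Under the label male no member passed between lines by edgeR, against 0.102% of genes higher and 0.13% lower, and DESeq2 called none. Under the label female none passed by either tool, against 0.26% and 0.232% of genes by edgeR. At an unadjusted p of 0.05, 6 members were higher and 2 lower under the label male, and 2 higher and 4 lower under the label female. Of all genes 6.58% and 6.5% were so under the label male, and 7.49% and 6.62% under the label female. The interaction of line and label passed for no member by either tool, against 0.017% and 0.0113% of genes by edgeR. At an unadjusted p of 0.05, 0 members had a positive interaction and 1 a negative one, against 2.19% and 1.91% of genes. For Ndufb7 the log2 fold change was 0.31 under the label male and 0.36 under the label female, and for Ndufa4l2 0.99 and 1.49. For Ndufs1 it was -0.40 and -0.39.

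Between sex labels 1 member passed. Ndufa4 (chr6:11900292-11907497, minus strand), a subunit now placed in complex IV, was lower in libraries labelled male. In Colo201 hosts it had 134 and 156 CPM under the label male (2L, 2R) and 209 and 213 under the label female (4L, 4R). In HCT116 hosts it had 113 and 131 CPM under the label male (1L, 1R) and 204 and 243 under the label female (3L, 3R). The labels did not overlap in either line. The means were 133 ± 17.6 CPM in libraries labelled male and 217 ± 17.8 CPM in those labelled female (SD, n = 4 each). The log2 fold change was -0.71 (SE 0.11), with an edgeR adjusted p of 0.0109. It passed under each of the 17 alternatives run for it, with an adjusted p of 1.43e-06 to 0.0412. Fits with the libraries of a title number summed, limma, counts divided by 4 and the exon-length offset were run for the line only. Whether the call holds with L and R summed was therefore not tested.

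By comparison, 1.96% of all genes passed as higher and 2.06% as lower in libraries labelled male. Of all genes 5.06% had labels that did not overlap with male higher and 4.58% with male lower, and of the members 0 and 1. The sign was negative for 64 of 80 members, with a median of -0.08 on the log2 scale. At an unadjusted p of 0.05, 2 members were higher and 5 lower under the label male, against 9.3% and 8.87% of all genes. For Ndufa4 the difference between lines had an interval from -0.17 to 0.33. Its relative Ndufa4l2 had a log2 difference of the opposite sign between labels, 0.81, which did not pass (adjusted p 0.172). Markers of some liver cells moved with the label. The 10 hepatocyte markers summed to 158647 to 200042 CPM under the label male and 128449 to 156346 under the label female. Of the 10, 6 were positive and 4 negative, and 2 passed as higher under the label male. All 8 endothelial markers were positive and 4 passed as higher under the label male, with sums of 270 to 320 CPM there and 170 to 228 under the label female. All 10 Kupffer cell markers were positive and 2 passed, with sums of 448 to 548 CPM against 195 to 378. Of 8 stellate and matrix markers 5 were positive and 3 negative, of 6 cholangiocyte markers 2 and 4, and none of these passed. Of 5 tested erythroid markers 1 was positive and 4 negative, and 1 passed as lower under the label male (edgeR adjusted p 7.79e-05). All 5 tested neutrophil markers were positive and none passed. The part of the marker differences in that of Ndufa4 was not tested. Each line and label is also 1 title number, so the label and whatever else that number marks cannot be told apart.

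Genes around the respiratory chain were read from lists. Of 8 respiratory genes that the spelling leaves out, 3 were positive and 5 negative between lines. Only Atpif1, the inhibitor of ATP synthase, passed. It was higher in Colo201 hosts, 1 gene of 8 against 2.48% of all genes. It had 20.9, 25.4, 17.3 and 17.3 CPM against 13.9, 14.4, 11.3 and 12.5, without overlap (log2 0.63, SE 0.0993, adjusted p 0.0167). The call was lost without HCT116 1L, 1R or 3L, with an adjusted p of up to 0.0632. The electron transfer flavoprotein gene Etfa had 300.02 to 337 CPM against 364 to 408 and did not pass (adjusted p 0.0982).

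Of 49 assembly factor genes 3 passed as higher and 1 as lower in Colo201 hosts, against 2.48% and 2.3% of all genes. Cox14, a factor for the Cox1 subunit, had 32.6 to 36.1 CPM against 21.5 to 25.1 (log2 0.53, SE 0.0818, adjusted p 0.0150). Uqcc2, which assists cytochrome b, had 19.6 to 21.9 CPM against 12.4 to 16.0 (log2 0.51, adjusted p 0.0284). Ndufaf8, a factor of complex I, had 16.6 to 18.9 CPM against 11.96 to 13.8 (log2 0.44, adjusted p 0.0407). Coa6, which serves copper delivery to complex IV, was lower, with 17.1 to 19.7 CPM against 22.2 to 28.1 (log2 -0.45, adjusted p 0.0380). With 1 library left out the call was lost in 3 of 8 fits for Cox14, 6 for Uqcc2, 8 for Ndufaf8 and 7 for Coa6, with an adjusted p of up to 0.0592, 0.09795, 0.131 and 0.118. The exon-length offset ended the calls of Cox14 (adjusted p 0.0510), Uqcc2 (0.05004) and Ndufaf8 (0.0824).

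Of 21 regulators of mitochondrial genes 2 passed, both lower in Colo201 hosts, against 2.3% of all genes lower, and 17 were negative. Esrrg, an oestrogen-related receptor known as an activator of respiratory genes in mouse heart and muscle, had 0.454 to 2.25 CPM against 2.02 to 4.78. It was lower in Colo201 hosts by 1.48 on the log2 scale (edgeR adjusted p 0.0250). Between sex labels it was higher under the label male (log2 1.27, edgeR adjusted p 0.0359), 1 regulator of 21 against 1.96% of all genes. Sirt1, a deacetylase that acts on Ppargc1a, had 9.28 to 11.1 CPM against 12.4 to 15.7 (log2 -0.48, adjusted p 0.0312). With 1 library left out the call was lost in 8 of 8 fits for Sirt1 (adjusted p 0.0547 to 0.0997) and in 5 of 8 for Esrrg (up to 0.0748), and on log2(FPKM + 1) the difference of Esrrg was -0.34. Gabpa, an ETS factor of respiratory genes, had 30.3 to 36.3 CPM against 38.0 to 47.4 and did not pass (log2 -0.37, adjusted p 0.0524). Its exons overlap those of Atp5j on the opposite strand. The regulators summed to 488 to 530.5 CPM in Colo201 hosts and 576 to 643 in HCT116 hosts.

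None of 17 citric acid cycle genes passed, and 14 were negative. They summed to 1882 to 2014 CPM in Colo201 hosts and 2128 to 2209 in HCT116 hosts, without overlap. None of 7 carrier genes passed between lines. Between sex labels Ucp2 was higher in libraries labelled male (log2 0.60, edgeR adjusted p 0.0483), with labels that overlapped. That is 1 gene of 7, against 1.96% of all genes. At an unadjusted p of 0.05, 6 of the citric acid cycle genes were lower in Colo201 hosts, and of the carrier genes 1 was higher and 2 were lower, where all genes had 11% higher and 10.7% lower.

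None of the 13 mRNAs of mitochondrial DNA passed, and they summed to 54897 to 62246 CPM in Colo201 hosts and 49956 to 65219 in HCT116 hosts. The mRNA of the ATP synthase subunit mt-Atp6 had 593 to 2648 CPM in Colo201 hosts and 689 to 4308 in HCT116 hosts, a wide range within each line (adjusted p 0.161), and it alone of the 13 was below an unadjusted p of 0.05. Of 78 mitochondrial ribosomal protein genes 57 were positive, and 3 passed as higher in Colo201 hosts, against 2.48% of all genes. These were Mrps6 (log2 0.71, edgeR adjusted p 0.0200), Mrps15 (log2 0.41, adjusted p 0.0351) and Mrps16 (log2 0.41, adjusted p 0.0438). With 1 library left out the call was lost in 5 of 8 fits for Mrps6, 8 for Mrps15 and 7 for Mrps16, with an adjusted p of up to 0.0747, 0.117 and 0.138. The exon-length offset ended the calls of Mrps15 (adjusted p 0.0760) and Mrps16 (0.0750). Of 81 cytosolic ribosomal protein genes 63 were positive and none passed between lines, with 8 higher at an unadjusted p of 0.05, against 11% of all genes. In sum, both kinds had their highest values in Colo201 4L and HCT116 3R.

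The lines overlapped in summed markers of red blood cells only through HCT116 3R, since the other HCT116 libraries reached at most 621 CPM. The 5 tested erythroid markers summed to 660 to 1309 CPM in Colo201 hosts and 551 to 863 in HCT116 hosts, none passed, and 4 were higher at an unadjusted p of 0.05, against 11% of all genes. For 1 of the 5 the lines did not overlap, with Colo201 hosts higher, against 6.27% of all genes. The part of these markers in the differences between lines was not tested.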

How the data were processed

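Polyadenylated RNA of mouse liver was sequenced in 8 libraries, made with a stranded TruSeq mRNA kit from TRIzol extracts, per the labels' protocols. The submitters' processing notes name HISAT2, StringTie and the build GRCm38 (mm10); no annotation or strand setting is named in the labels used. The authors deposited estimated counts per gene as whole numbers and a table of FPKM; the deposited FPKM equal the counts over merged exon length, within 1% for 99.0% of 2392 genes compared, and so are not independent.

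Counts were scaled by TMM, filtered by filterByExpr and tested over 17669 genes with edgeR 4.0.16 (R 4.3.3, quasi-likelihood test, two-sided, Benjamini-Hochberg over all genes, threshold 0.05). Line was fitted with sex label as covariate and the reverse. A fit with 4 means gave the differences within labels and the interaction. Intervals are 95% from the same fit. Copies were found with BLAST+ 2.17.0+. Fits were tested on simulated data. Members and lists were chosen with earlier results of these data known.

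Named members passed in any comparison, had the 3 smallest p or 2 highest FPKM of their complex, or belong to isoform families; Ndufv3, Ndufa13, Ndufa3 and the members shown with a copy were added after their values were seen. Alternatives were other scalings, filters, thresholds and covariates, DESeq2 1.42.0, limma voom 3.58.1, limma on log2(FPKM + 1) and log2(FPKM + 0.1), counts divided by 4, summed title numbers, and each library left out.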

Additional observations from a re-analysis of the deposited data

Results flagged for a closer look

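Each value here lay so far from the other 3 libraries of its line that the gap, as a share of the line's whole range, exceeded Dixon's 95% critical value. Of 76 sets of 4 libraries looked at, 8 held such a library, and chance gives about 1 in 20. In 5 of the 8 it was HCT116 3R. The sets share libraries, and the complex sums include named members. They are therefore not independent, and the count is no test against chance.

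Cox7b had 192 CPM in HCT116 3R, against 164 to 166 in the others. Ndufb9 had 192 CPM in HCT116 3R, against 145 to 152. Summed over complex III, HCT116 3R had 1585 CPM against 1321 to 1331. Summed over complex IV it had 1889 CPM against 1568 to 1595, and over complex V 4259 CPM against 3861 to 3909. Ndufb7 had 53.8 CPM in HCT116 3L, against 62.1 to 62.6, and without this library its log2 fold change between lines was 0.29 (edgeR adjusted p 0.152). Ndufa2 had 91.1 CPM in Colo201 4L, against 78.2 to 79.0. Uqcrq had 282 CPM in Colo201 2R, against 211 to 219.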

How the results depend on the processing

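Between lines, 2 members passed as higher and 0 as lower, of 439 and 406 genes. Members passing as higher were 0 at an adjusted p of 0.01, with RLE scaling, library totals, no filter, no sex label, summed title numbers and the exon-length offset. They were 1 with a summed count of at least 40 and with limma voom, and 4 at 0.10. Members passing as lower were 1 at 0.10, with library totals, at least 1 CPM in 4 libraries, counts divided by 4, DESeq2, limma voom and the offset, and 3 with either FPKM setting. All genes passing as higher and lower were 41 and 51 at 0.01, 874 and 823 at 0.10, and 883 and 920 with DESeq2. They were 88 and 67 with no sex label, 374 and 402 with the offset, and 0 and 0 with summed title numbers. On log2(FPKM + 1) 292 passed as higher. For the scalings, the filters, counts divided by 4, limma voom and the members lower with FPKM, the matching counts of all genes are not given. The members passing there are not set against a background. With each library left out in turn, 0 members passed as higher, and 86 to 267 genes passed as higher and 89 to 283 as lower. The complex II ratio was 0.929 with library totals.

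Signs of log2 fold changes turned for some members near zero, none of which passed either way. Sdhd was 0.0001 with upper quartile scaling and ran from -0.0271 to 0.0116 with a library left out. Sdhb was -0.0042 and -0.0043, and Uqcr10 -0.0066 and -0.0065, on log2(FPKM + 1) and log2(FPKM + 0.1). With the offset Cox4i1 was -0.0557, Cox8a -0.0459, Ndufa4 -0.0484, Sdhb -0.0643 and Uqcr10 -0.0897. With a library left out Cox4i1 ran from -0.0284 to 0.175, Cox4i2 from -0.153 to 1.12, Ndufb9 from -0.102 to 0.0424 and Uqcr10 from -0.0342 to 0.132. The cause was not tested. Joining near-identical copies, like the offset, was chosen after seeing the data, and left 2 members passing. No paired analysis was possible because no title number is shared by the lines.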
